A study of Rattus norvegicus with 4 samples.

Results

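The genes described here are 7 targets of the transcription factor Nrf2 (Hmox1, Nqo1, Srxn1, Txnrd1, Gclc, Gclm and Slc7a11) and the superoxide dismutase genes Sod1, Sod2 and Sod3. These 10 genes were taken by symbol, with every probe set annotated to 1 of them, out of 13810 genes with a probe set of their own on either array design. All 10 had at least 1 probe set. The day 1 design held 9 of them, on 11 probe sets, and the day 3 design held Srxn1 and Slc7a11, on 3 probe sets.

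The samples were lateral wall tissue of the cochlea from female Sprague-Dawley rats of 8 to 10 weeks and 180 to 210 g. Under pentobarbital anaesthesia with local lidocaine, the bulla of the left ear was opened and the round window niche received either 300 mM 3-nitropropionic acid (3-NP) in saline or saline alone, held in place with gelatin. 3-NP blocks succinate dehydrogenase, complex II of the mitochondrial respiratory chain, and the labels call the result an acute mitochondrial dysfunction model. In both treatments the right cochlea had been destroyed surgically. The groups were 3-NP at 1 day, saline at 1 day, 3-NP at 3 days and saline at 3 days, each with 1 array, and the sources used here do not say how many animals gave the RNA. Every difference below is therefore between 2 arrays, with no replicate spread and no test.

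Nrf2, encoded by Nfe2l2, is normally held at a low level by Keap1, which directs it to degradation. Oxidants and electrophiles modify Keap1, and Nrf2 then accumulates, pairs with small Maf proteins and binds antioxidant response elements in the DNA near its target genes. The targets make and use glutathione and thioredoxin, reduce quinones and break down heme. Superoxide dismutases turn superoxide into hydrogen peroxide, Sod1 mainly in the cytosol, Sod2 in the mitochondrial matrix and Sod3 outside the cell. In the cochlea, oxidative stress is a studied part of the damage done by noise, drugs and loss of mitochondrial function.

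The promoters of these genes were searched for the core of the antioxidant response element, TGACNNNGC, on both strands of a window of 250 bases before and 50 bases from the annotated gene start. RefSeq promoter sequences of the GRCr8 rat assembly were at hand for 8 of the 10 genes, in 9 windows since Txnrd1 has a pair. The core occurred in the windows of Gclm, Sod2 and the downstream Txnrd1 start, always on the strand opposite to the gene, and in 12.1% of all 33469 promoter windows of the assembly. A further motif, TGANTCA, the AP-1 core, which partly overlaps the element's consensus in its letters and which was added after the sequences had been seen, occurred at 2 places in the Srxn1 window and in 7.33% of all windows. The Srxn1 match nearer the gene start is followed by gc, so it differs from TGACNNNGC only in the G after TGA. The windows of Nqo1, Gclc, Slc7a11 and Sod1 held neither string of letters, which says nothing of sites further away. A match is a string of letters and not a measured binding site. The 4 windows with a match are shown. Their genes all had higher raw 3-NP signals at day 1, as did Nqo1, Gclc and Sod1, whose windows held no match. The median gene of that pair of arrays was itself 0.44 higher in 3-NP on the log2 scale. Relative to the median gene, Sod1 was not higher (-0.06). The 4 windows lie at chr3:161064562-161064861 on the plus strand (Srxn1), chr7:22755855-22756154 on the minus strand (Txnrd1), chr2:213031885-213032184 on the plus strand (Gclm) and chr1:50050119-50050418 on the minus strand (Sod2). Each is written 5′ to 3′ along the gene, with the matched bases in capitals. A match on the opposite strand therefore appears as the reverse complement of the motif.
Srxn1: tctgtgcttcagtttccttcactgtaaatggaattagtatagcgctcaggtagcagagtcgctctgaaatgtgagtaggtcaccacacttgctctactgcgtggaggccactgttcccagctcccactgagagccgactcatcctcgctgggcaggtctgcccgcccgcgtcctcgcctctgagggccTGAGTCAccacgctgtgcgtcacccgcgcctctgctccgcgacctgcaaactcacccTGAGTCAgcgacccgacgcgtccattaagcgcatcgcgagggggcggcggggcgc
Txnrd1: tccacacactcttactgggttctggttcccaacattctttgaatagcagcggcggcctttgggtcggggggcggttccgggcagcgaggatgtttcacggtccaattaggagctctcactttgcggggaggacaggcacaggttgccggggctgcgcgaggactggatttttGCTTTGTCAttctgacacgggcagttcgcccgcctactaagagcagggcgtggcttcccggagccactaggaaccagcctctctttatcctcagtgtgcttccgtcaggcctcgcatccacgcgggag
Gclm: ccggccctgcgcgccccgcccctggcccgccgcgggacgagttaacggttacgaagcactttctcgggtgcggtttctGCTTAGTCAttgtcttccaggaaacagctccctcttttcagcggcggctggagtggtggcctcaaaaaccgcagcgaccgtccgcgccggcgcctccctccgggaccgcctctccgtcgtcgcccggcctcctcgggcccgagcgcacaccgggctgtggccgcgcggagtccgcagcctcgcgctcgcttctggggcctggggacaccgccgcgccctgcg
Sod2: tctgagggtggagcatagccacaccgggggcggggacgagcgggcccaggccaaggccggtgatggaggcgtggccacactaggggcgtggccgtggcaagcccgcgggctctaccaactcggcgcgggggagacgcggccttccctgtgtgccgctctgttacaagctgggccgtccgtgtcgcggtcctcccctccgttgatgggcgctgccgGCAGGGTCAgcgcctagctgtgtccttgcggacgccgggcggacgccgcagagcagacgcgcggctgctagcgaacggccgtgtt

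**Figure D1:**
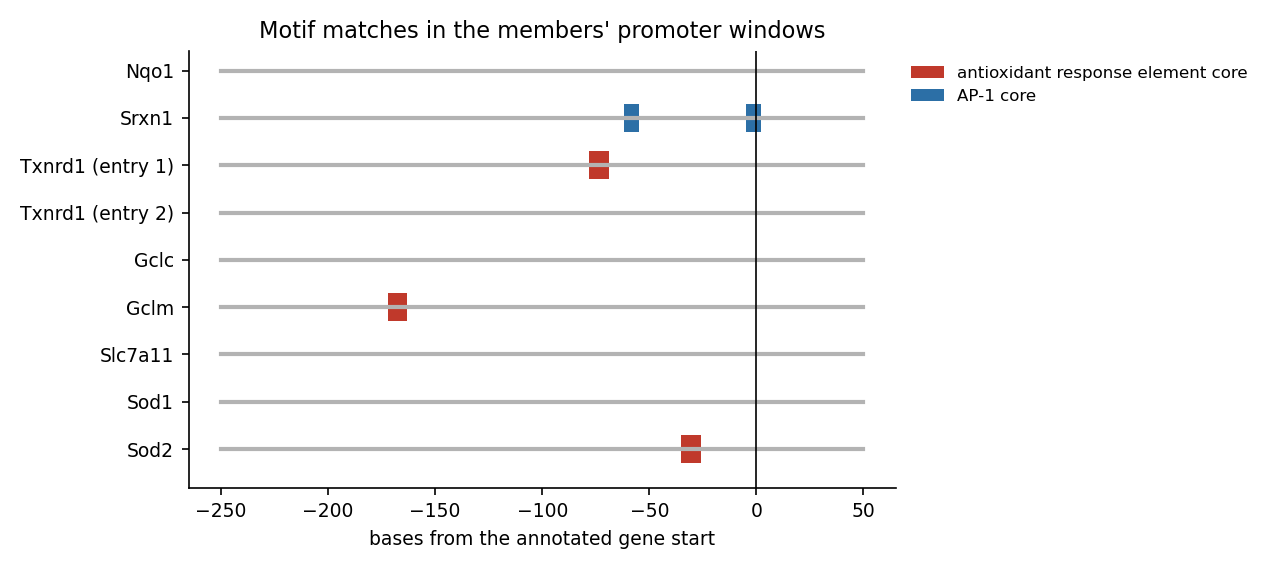
Promoter windows of the 8 genes with a RefSeq entry, drawn as grey lines against the distance in bases from the annotated gene start, with Txnrd1 in 2 lines for its 2 annotated starts. Red boxes mark the antioxidant response element core, whose matches begin 35 bases before the start in Sod2, 78 in Txnrd1 and 172 in Gclm, and blue boxes mark the AP-1 core, which begins 62 and 5 bases before the start in Srxn1.

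Signals are linear MAS5 intensities of Affymetrix probe sets. Because the median gene of the day 1 pair was 0.44 higher on the log2 scale in the 3-NP array (0.10 at day 3), ratios are given as relative log2 ratios: log2 of 3-NP over saline minus that of the median gene. Array medians were 60.7 in 3-NP and 44.9 in saline at day 1, and 19.97 in 3-NP and 18.7 in saline at day 3. A gene counts as measured when a probe set reached the array's median signal under either treatment, which left 6533 genes at day 1 and 3972 at day 3. Signals under the 30th percentile of an array were raised to it, as a floor, and a gene at the floor in 1 array has a bound. The technical spread of a log2 ratio, taken from genes with several probe sets, was an SD of 0.35 at day 1 and 0.44 at day 3. It compares probe sets of a gene on the same pair of arrays, so it covers neither repeat hybridisations nor animals.

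At day 1, 7 of the 9 genes on the array stood 2-fold or more higher in the 3-NP array relative to the median gene, and 0 were at least 2-fold lower. Over all genes measured, 7.76% were at least 2-fold higher and 6.47% at least 2-fold lower. The 7 were all 6 Nrf2 targets on this design and Sod2, while Sod1 lay near the median gene and Sod3 below it. The median of the 9 genes was 1.97, against 0 over all genes by construction. As deposited, without centring, the count was again 7, against 17.9% of all genes higher and 2.62% lower, and the median was 2.41. All 9 passed the filter, but Hmox1, Nqo1, Srxn1 and Gclm passed only through their 3-NP signal, so for these 4 a difference was built into being measured. Without the filter the same 9 genes enter.

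**Figure D2:**
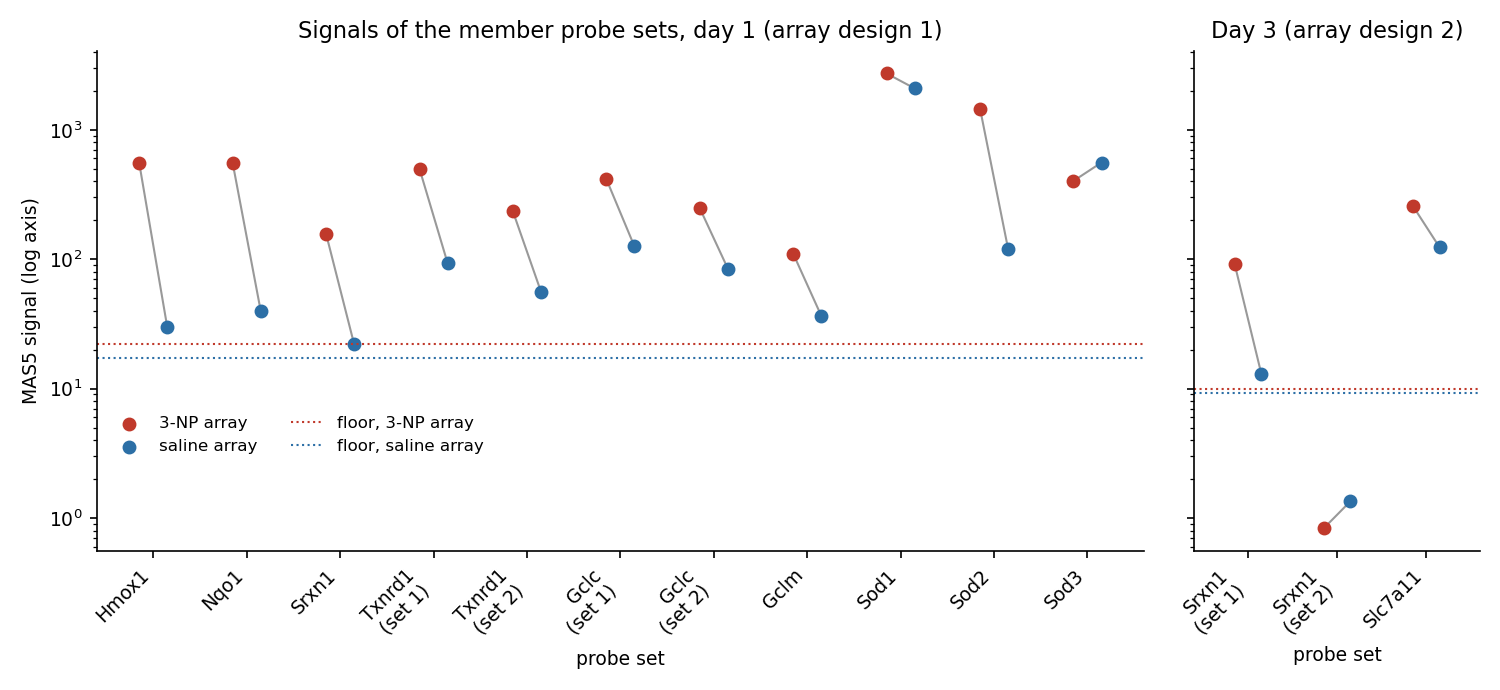
MAS5 signal on a log axis for each probe set of the 10 genes, with the 3-NP array in red to the left of the saline array in blue, for day 1 and, on another array design, day 3. Where a gene has several probe sets they are numbered from the brightest, and dotted lines mark the floor of each array. At day 1 only Sod3 had a lower signal in 3-NP, and the second Srxn1 probe set at day 3 lay below the floor in both arrays.

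Hmox1 encodes heme oxygenase 1, the inducible enzyme that opens heme into biliverdin, iron and carbon monoxide. Its signal was 551 in the 3-NP array and 29.8 in the saline array at day 1, where the floors were 22.04 in 3-NP and 17.1 in saline. This gives a relative log2 ratio of 3.77, or 13.6-fold, which ranked 16 among the 6533 genes. The saline signal stood at the 41.4th percentile of its array, so the size of the fold rests on a dim value. Hmox2, the constitutive heme oxygenase gene, had 232 in 3-NP and 187 in saline, a relative log2 ratio of -0.13, and 0.31 as deposited.

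The gene for the quinone reductase NQO1, Nqo1, had a signal of 553 in 3-NP and 39.9 in saline. Its relative log2 ratio of 3.35 (10.2-fold) ranked 24 of 6533. Saline was again in the lower part of the array, at the 47.5th percentile, and 3-NP at the 93.7th.

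The thioredoxin branch was represented by Srxn1 and Txnrd1. Sulfiredoxin, encoded by Srxn1, restores over-oxidised peroxiredoxins, and it had 157 in 3-NP and 22.1 in saline at day 1, a relative log2 ratio of 2.39 (5.24-fold, rank 78). With the floor at the 40th percentile the saline value was at the floor, and the ratio became a bound of 2.03. Txnrd1, which encodes the cytosolic thioredoxin reductase, had 2 probe sets. The brighter gave 498 in 3-NP and 93.6 in saline, a relative log2 ratio of 1.97 (3.93-fold, rank 126), and the other gave 233 in 3-NP and 56.1 in saline, at 1.62. Both probe sets were above the array median in both arrays, and their ratios differed by about the technical SD.

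Glutathione synthesis starts with glutamate-cysteine ligase, made of a catalytic subunit (Gclc) and a modifier subunit (Gclm). Gclc had 415 in 3-NP and 126 in saline by its brighter probe set, a relative log2 ratio of 1.28 (2.43-fold, rank 323), and 247 in 3-NP and 84.7 in saline by the other, at 1.11. Gclm had 110 in 3-NP and 36.6 in saline, at 1.15 (2.22-fold, rank 387). Both subunit genes thus lay above 2-fold by less than the technical SD, on every probe set. Over the 10 processing alternatives each stayed at least 2-fold higher, with lowest values of 1.15 for Gclc and 1.11 for Gclm. Slc7a11, the cystine importer subunit that supplies cysteine for this pathway, was on the day 3 design only.

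The dismutase genes differed in direction at day 1. Sod2, the manganese enzyme of the mitochondrial matrix and a known target of inflammatory signalling as well as of oxidative stress, had 1454 in 3-NP and 120 in saline. Its relative log2 ratio of 3.16 (8.91-fold) ranked 35 of 6533. Here both signals were in the upper part of the array, with saline at the 74.5th percentile.

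Sod1, the copper-zinc enzyme of the cytosol, had 2721 in 3-NP and 2086 in saline, a relative log2 ratio of -0.06 near the middle of all genes (rank 3517). As deposited the value was 0.38, so its sign depends on the centring. Sod3, the extracellular copper-zinc enzyme, had 402 in 3-NP and 558 in saline. Its relative log2 ratio was -0.91, or 1.88-fold lower, at rank 503 counted from the lowest gene, and -0.47 as deposited. It was the only one of the 9 with a lower raw signal in 3-NP, and it did not reach 2-fold under any of the 10 alternatives.

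**Figure D3:**
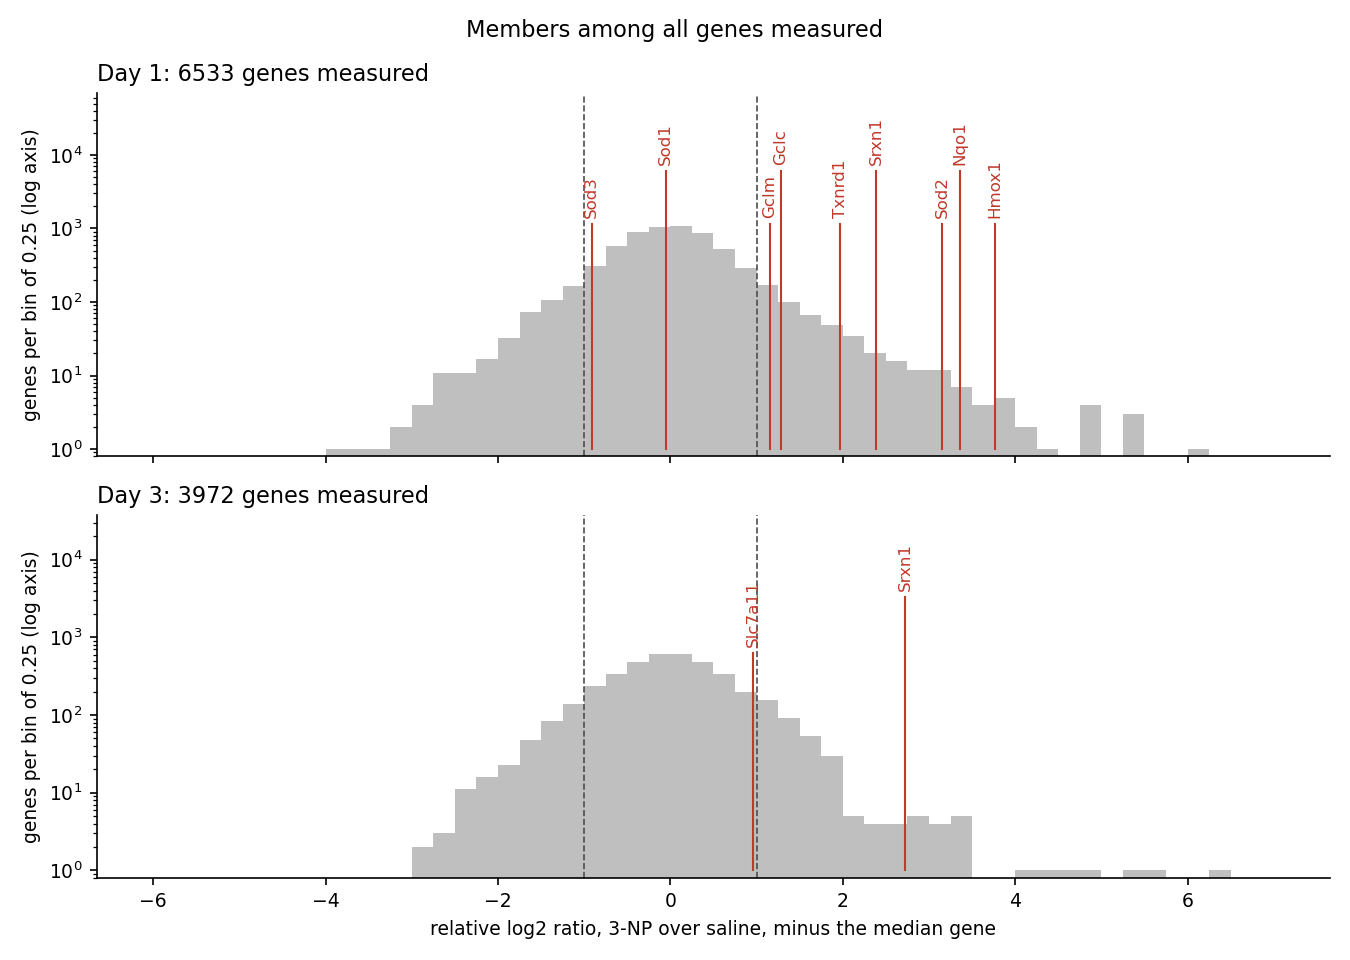
Relative log2 ratio of 3-NP over saline for all genes measured at day 1 (6533) and at day 3 (3972), as grey histograms on a log count axis, with red lines for the members and dashed lines at 2-fold. At day 1 Hmox1, Nqo1 and Sod2 sit in the sparse upper tail above 3, and Sod1 sits at the centre.

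The share of all genes that were 2-fold higher changed with brightness. When the genes of day 1 were put into 4 equal groups by mean signal, the dimmest held Srxn1 and Gclm, and in it 12.8% were at least 2-fold higher. In the brightest, which held all 3 dismutases, the figure was 4.78%. Relative ratios of 3 or more were rarer, at 0.735% of the group that held Hmox1, 0.490% of that with Nqo1 and 0.612% of that with Sod2.

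At day 3, on the other array design, Srxn1 was higher in 3-NP again and Slc7a11 lay just under 2-fold. Thus 1 of 2 genes was at least 2-fold higher and 0 lower, where 9.21% of all genes were higher and 8.18% lower. As deposited both genes passed 2-fold, where 10.9% of all genes were higher and 6.42% lower. Srxn1 had 92.6 in 3-NP and 13.1 in saline by its brighter probe set, a relative log2 ratio of 2.72 (6.61-fold, rank 22 of 3972), with a saline floor of 9.22. It passed the filter only through its 3-NP signal. A second probe set gave 0.831 in 3-NP and 1.35 in saline, far below the floors, and so no ratio. The mean of both probe sets, with the second set to the floor, gave 1.35. Slc7a11 had 258 in 3-NP and 123 in saline, both bright for this design, with a relative log2 ratio of 0.96 (1.95-fold, rank 391). It was 1.06 as deposited and 1.03 after lowess, so its side of 2-fold depends on the scaling. The other 8 genes were not measured at day 3, and since day and array design coincide, the levels at day 3 were not set against those at day 1.

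Genes for Nrf2 and its regulators formed a list of their own. Of 8 such genes measured at day 1, 1 was at least 2-fold higher and 0 lower (3 higher as deposited), with a list median of 0.44. Nfe2l2 itself had 320 in 3-NP and 241 in saline, a relative log2 ratio of -0.03, and Keap1 had 172 in 3-NP and 91.9 in saline, at 0.47. These 2 are named because they encode the factor and its inhibitor, not by rank. The gene past 2-fold was Mafk, which encodes a small Maf partner of Nrf2, with 253 in 3-NP and 68.2 in saline (1.45). Mafg, another small Maf gene and named after its values were seen, lay at 0.85 by its brighter probe set. Its other probe set had 69.0 in 3-NP and 12.8 in saline, at the floor, a lower bound of 1.57. At day 3, of 2 measured genes, the small Maf gene Maff had 253 in 3-NP and 2.43 in saline, which was at the floor, so it was at least 25.6-fold higher.

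Thioredoxin and peroxiredoxin genes lay around the median gene at day 1, with 1 of 12 at least 2-fold higher, 0 lower and a median of -0.03 (0.41 as deposited). The gene past 2-fold was the glutaredoxin gene Glrx, with 265 in 3-NP and 91.9 in saline (1.09). The list had no probe set at day 3. In glutathione synthesis and recycling, 2 of 7 measured genes were higher and 1 lower at day 1, with a median of 0.69. The glutamate and cysteine transporter gene Slc1a1 had 136 in 3-NP and 12.2 in saline, at the floor, so it was at least 5.86-fold higher. The glutathione synthetase gene Gss had 126 in 3-NP and 39.4 in saline (1.24). Cbs, whose enzyme cystathionine beta-synthase leads homocysteine towards cysteine, had 121 in 3-NP and 344 in saline (-1.95). Another 4 genes of the list, among them the glutathione reductase gene Gsr with 20.1 in 3-NP and 9.40 in saline, were too dim to be measured. At day 3, 1 of 2 was higher, the neutral amino acid transporter gene Slc1a4 with 38.9 in 3-NP and 14.9 in saline (1.28).

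NADPH is the reductant on which thioredoxin and glutathione reductases draw. Of 8 measured genes that supply it, 0 were 2-fold apart at day 1 (1 higher as deposited), with a median of -0.19 and 0.24 as deposited. Nnt, the transhydrogenase of the mitochondrial membrane, lay furthest from the median gene at -0.93, with 126 in 3-NP and 176 in saline. Heme synthesis and breakdown genes other than Hmox1 had a median of -0.18 (0.26 as deposited), with 1 of 7 higher and 0 lower. The gene past 2-fold was Por, whose reductase passes electrons to heme oxygenase, with 311 in 3-NP and 109 in saline (1.08). At day 3 none of 3 such genes was 2-fold apart, and Cpox was furthest at 0.58, with 100 in 3-NP and 62.4 in saline.

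Among catalase and the genes that deliver metal to the dismutases, 1 of 6 was higher and 1 lower at day 1, with a median of -0.37 (0.07 as deposited). The metal importer gene Slc39a14, whose protein carries zinc, iron and manganese, had 366 in 3-NP and 78.1 in saline (1.79). Slc31a2, a copper transporter gene, had 29.6 in 3-NP and 59.6 in saline (-1.45). At day 3 Slc39a14 was the 1 of 3 genes past 2-fold, with 63.8 in 3-NP and 21.0 in saline (1.51).

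Further known Nrf2 targets lay on both sides of the median gene at day 1, with 3 of 9 higher, 1 lower and a median of -0.29 (0.15 as deposited). The aldo-keto reductase gene Akr1b8 had 648 in 3-NP and 85.6 in saline (2.48). Ugdh, which makes UDP-glucuronate, had 630 in 3-NP and 123 in saline (1.92). Osgin1, an oxidative stress-induced growth inhibitor, had 95.4 in 3-NP and 2.58 in saline, at the floor, and was at least 4.10-fold higher. The lower gene, named after its values were seen, was Akr7a3, an aldehyde reductase, with 35.0 in 3-NP and 84.6 in saline (-1.71). The 1 gene of the list measured at day 3, the exporter gene Abcc4, had 36.1 in 3-NP and 46.9 in saline (-0.48). Of the superoxide-forming oxidases only 2 of 8 genes were measured at day 1 and 2 of 2 at day 3, with 0 past 2-fold. Cyba, a subunit of the NADPH oxidases, had 241 in 3-NP and 301 in saline at day 1 (-0.76), while its other probe set was below the floor in both arrays and gave no ratio, and Ncf4, another subunit, had 35.2 in 3-NP and 21.5 in saline at day 3 (0.61).

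Over these 8 lists, 9 of 59 measured genes passed 2-fold upwards at day 1 and 3 downwards, with a median of -0.07. The shares were 15.3% and 5.08%, beside the 7.76% and 6.47% of all genes given above. As deposited the counts were 16 and 3 of 59, beside 17.9% and 2.62% of all genes. At day 3 the counts were 3 higher and 0 lower of 13, beside 9.21% and 8.18% of all genes. Among the higher genes, Slc1a1, Gss and Osgin1 at day 1 and Maff and Slc1a4 at day 3 passed the filter only through 3-NP. Akr7a3 and Slc31a2, lower at day 1, passed it only through saline. For these genes too a difference was built into being measured, and the same filter applied to all genes.

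**Figure D4:**
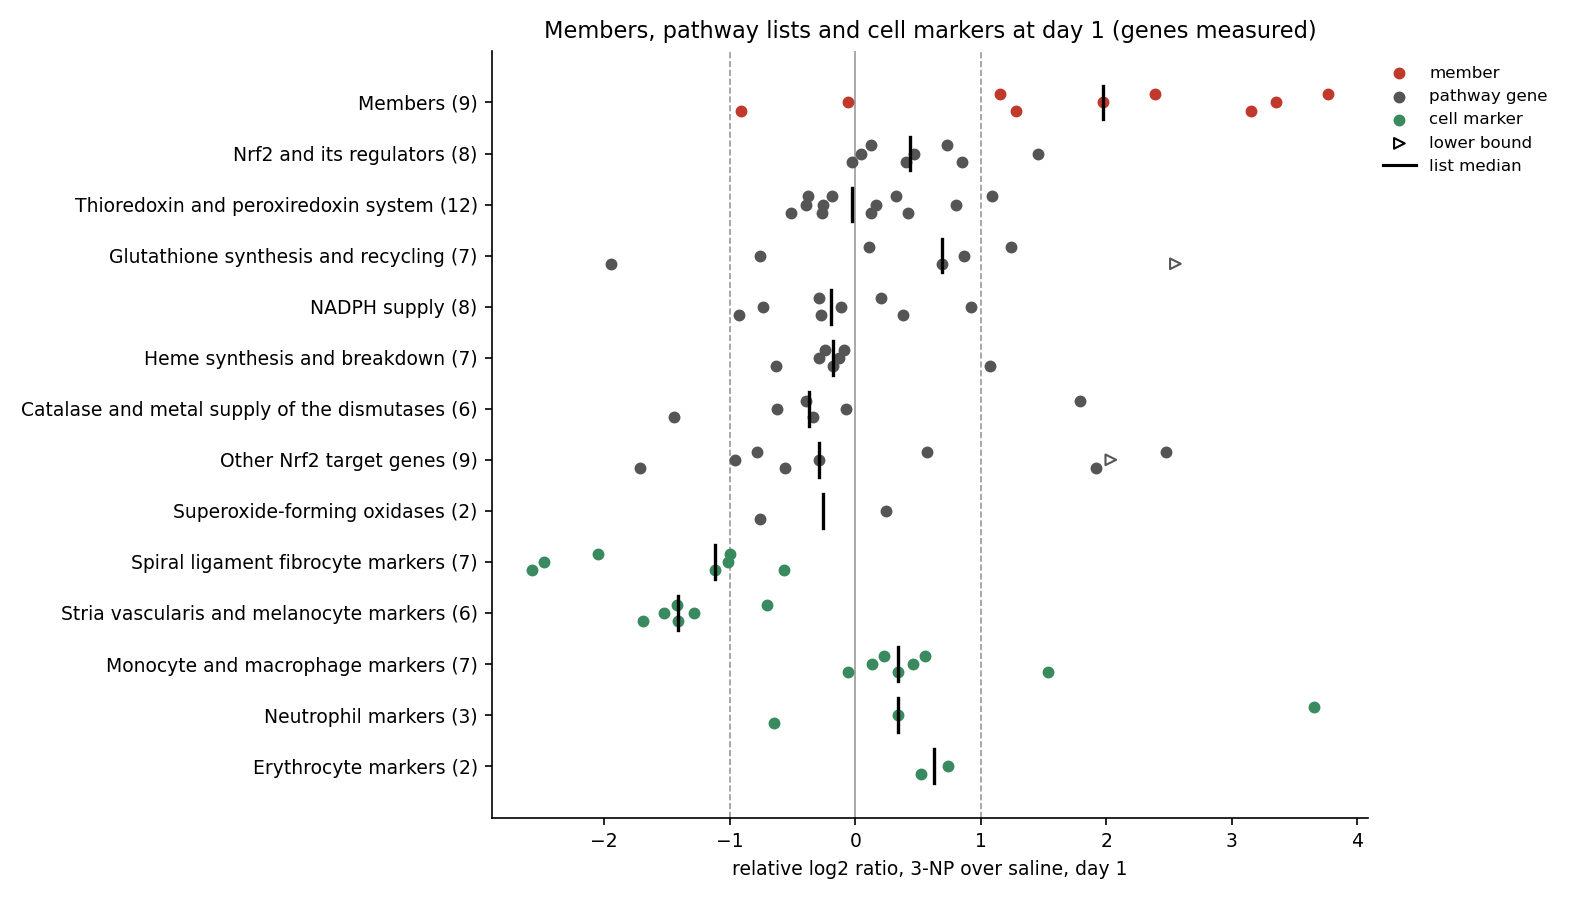
Relative log2 ratio of 3-NP over saline at day 1 for each measured gene of the members (red), the pathway lists (dark grey) and the cell marker lists (green), with the number measured in brackets. Black bars are list medians, open triangles are lower bounds and dashed lines mark 2-fold. The members' median is 1.97, and those of the fibrocyte and stria lists are -1.12 and -1.42.

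Markers of the cell types in the tissue differed alongside these values. One label field places the tissue in the upper basal turn and another describes the second turn without the stria vascularis. The brightest spiral ligament fibrocyte marker at day 1 was Slc12a2, with 2761 in 3-NP and 4109 in saline. At day 3 it was Coch, with 5677 in 3-NP and 6548 in saline. Of the fibrocyte markers on the array, 7 of 8 were measured at day 1 and 2 of 4 at day 3. Kcnk2 was too dim on both days, with 15.5 in 3-NP and 36.5 in saline at day 1. Car3 was too dim at day 3, with 11.1 in 3-NP and 16.8 in saline. Of 8 stria and melanocyte markers on the day 1 array 6 passed the filter, among them Kcne1 with 475 in 3-NP and 1006 in saline. The other 2 did not pass. Kcnj10 was below the floor in both arrays, with 13.3 in 3-NP and 11.6 in saline. Met had 26.4 in 3-NP and 32.2 in saline. At day 1, 5 of 7 measured fibrocyte markers were at least 2-fold lower (3 as deposited), with a median of -1.12, and the summed signal of all 8 on the array was 6850 in 3-NP and 12370 in saline. The lowest were Car3 (-2.57), Gjb6 (-2.48) and Car2 (-2.05). Of 6 measured stria and melanocyte markers 5 were lower (2 as deposited), led by Lrp2 (-1.69), Kcne1 (-1.52) and Kcnq1 (-1.42), with a summed signal over the 8 on the array of 1427 in 3-NP and 2828 in saline. In such bulk tissue, fewer cells of a type and less RNA per cell cannot be told apart.

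Blood and immune cells also express Hmox1 and Sod2. Of 7 measured monocyte and macrophage markers at day 1, 1 was higher, Cd14 with 177 in 3-NP and 44.9 in saline (1.54), and the list median was 0.34. Their summed signal, over 11 genes on the array of which 3 were at the floor in each array and 0 at a signal of 0, was 2637 in 3-NP and 1580 in saline. Most of this sum was Lyz2, with 1876 in 3-NP and 1183 in saline (0.23). Summed signals are raw and not centred on the median gene. The neutrophil list summed to 2279 in 3-NP and 263 in saline, and its brightest gene was Lcn2, lipocalin 2, which other cells also make, with 2093 in 3-NP and 122 in saline (3.66). The more restricted S100a8 had 55.5 in 3-NP and 64.2 in saline (-0.65), and S100a9 had 128 in 3-NP and 74.6 in saline (0.34). The pan-leukocyte gene Ptprc was below the floor in both arrays by both probe sets, with 5.24 in 3-NP and 6.03 in saline by 1 and 21.6 in 3-NP and 1.10 in saline by the other. The neutrophil receptor gene Cxcr2 was below the floor too, with 2.63 in 3-NP and 1.59 in saline. Of 2 measured erythrocyte markers none was 2-fold apart (1 higher as deposited). Hbb, the brightest, had 7216.5 in 3-NP and 3695 in saline (0.53), and Alas2 had 279 in 3-NP and 123 in saline (0.74). The erythrocyte list, with 4 genes on the array of which 2 were at the floor in saline, summed to 7548 in 3-NP and 3845 in saline. What these cell populations contribute to the Hmox1 and Sod2 values was not tested.

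At day 3 the 3 macrophage markers measured were Mrc1 with 32.2 in 3-NP and 63.5 in saline (-1.08), Cd163 with 11.4 in 3-NP and 22.2 in saline (-1.07) and Fcgr1a at 0.02, and their summed signal over 4 genes was 82.4 in 3-NP and 120 in saline. As deposited none of them was 2-fold apart. Another Cd163 probe set had 9.67 in 3-NP, under the floor of 9.85, and 13.4 in saline, which gave a bound of -0.55. The 1 neutrophil marker measured, Csf3r, had 18.5 in 3-NP and 21.1 in saline (-0.29). Of the 2 fibrocyte markers measured, Tbx18 was at -1.19 and Coch at -0.31. Stria markers were lower in 3 of 4 measured genes, Bsnd at -1.93, Tyr at -1.85 and Atp1b2, named after its values were seen, at -1.19, while 1 probe set put Tyrp1 at least 7.02-fold higher in 3-NP, and another gave it 0.69.

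Under the 10 processing alternatives, the 7 genes past 2-fold at day 1 stayed past it. Hmox1 ranged between 3.73 and 4.21, Nqo1 between 3.31 and 3.79, Sod2 between 3.12 and 3.59, and Txnrd1 between 1.66 and 2.41. Sod1 ranged between -0.16 and 0.38, on both sides of 0, and Sod3 between -0.95 and -0.47. In each of these 6 the highest value was the ratio as deposited.

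**Figure D5:**
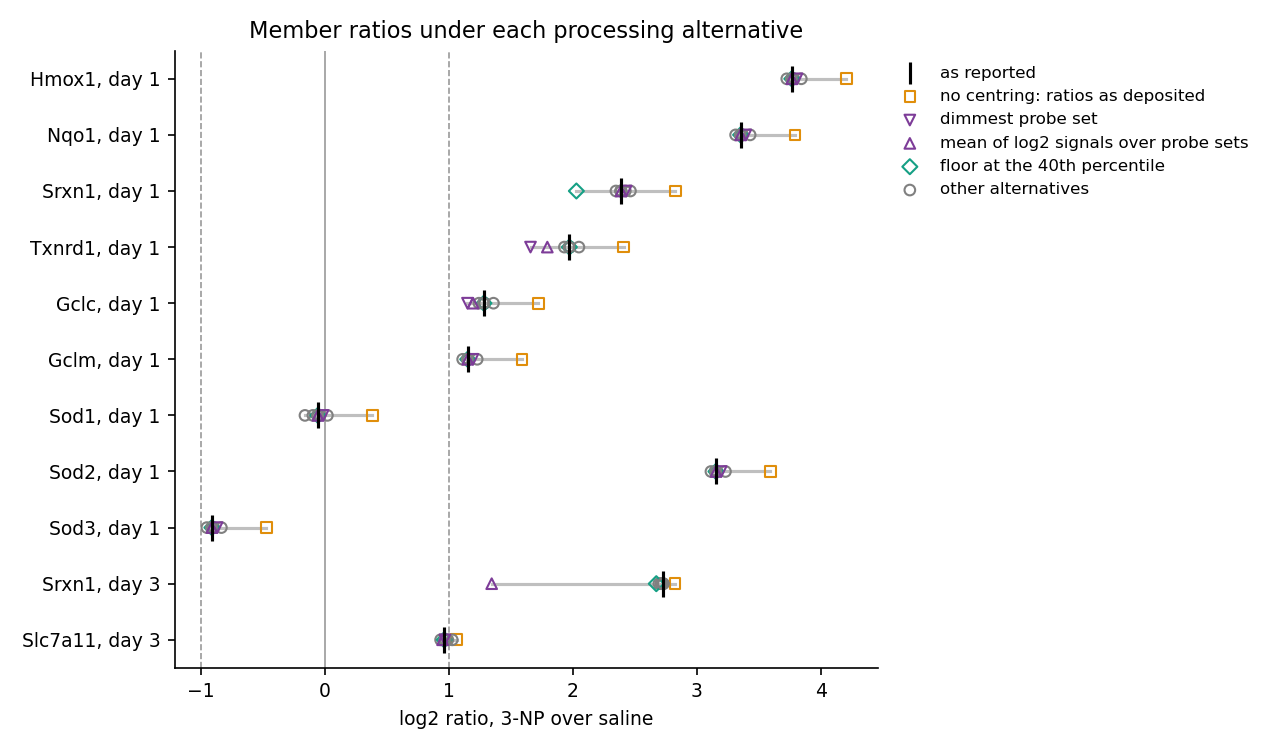
Log2 ratio of 3-NP over saline for each gene and day under the reported processing (black bar) and its alternatives (open symbols), with dashed lines at 2-fold. The day 1 values shift together when the ratios are not centred (orange squares), and Srxn1 at day 3 moves furthest, to 1.35, when its 2 probe sets are averaged.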

How the data were processed

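Lateral wall RNA was measured on 4 Affymetrix arrays, 1 for each of 4 groups. Per the labels' protocols, 6 µg of Trizol-extracted total RNA went into each biotin-labelled cRNA preparation. The deposited values are MAS5 signal intensities on a linear scale, per the submitters' processing notes. Detection calls were not used here, and no source used here gives the scaling target. Day 1 and day 3 lie on different array designs of 15923 and 15333 probe sets.

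From these, Python 3.11.15 with numpy and pandas set the floor at the 30th percentile of each array outside the 57 control probe sets, kept probe sets reaching the 50th percentile in at least 1 array of the pair, took the brightest kept probe set of each gene and subtracted the median log2 ratio of all genes. Gene symbols came from the platform annotation, updated by gene identifier to GRCr8. At day 1, 12783 of 15866 probe sets had 1 symbol, and 7564 of 15276 at day 3. The design fixed no test, since each group has 1 array, and the number of arrays limits all precision. The computation was tested on simulated data. Other genes were named from each list by size, up to 3 past 2-fold per day or else the furthest. The 10 genes, the lists and this rule were chosen with earlier results of these data known. The 10 alternatives changed the centring, normalization, floor, filter or probe set.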

Additional observations from a re-analysis of the deposited data

How the results depend on the processing

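The members' counts of 7 higher and 0 lower at day 1 were the same under all 10 alternatives, as was 0 lower at day 3. The day 1 median moved to 2.41 as deposited. At day 3, the count of 1 higher became 2 as deposited and 2 after lowess, since Slc7a11 lies near 2-fold, and 0 with the dimmest probe sets. The dimmer Srxn1 probe set, below both floors, gave no value, which left a median of 0.97 from Slc7a11 alone. The mean over probe sets gave a day 3 median of 1.15. Of 109 single-gene values under alternatives, 0 past 2-fold changed sign and 98 stayed within the technical SD. Of the other 11, 9 were the day 1 ratios as deposited, and the others were Srxn1 with a higher floor at day 1 and with averaged probe sets at day 3. No paired analysis was possible because each group has 1 array. No array could be left out for the same reason. Low saline signals limit the folds of Hmox1, Nqo1, Srxn1 and Gclm.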

Other observations

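A few genes of the lists were measured on both array designs, by different probe sets, and their ratios stand side by side without a comparison of levels. The copper transporter gene Slc31a2 had a relative log2 ratio of -1.45 at day 1 and -0.38 at day 3. Cul3, which encodes the ubiquitin ligase scaffold that Keap1 uses, had 667 in 3-NP and 477 in saline at day 1 (0.05) and 140 in 3-NP and 146 in saline at day 3 (-0.16). Hmox2 was at -0.13 at day 1 and -0.25 at day 3. These 3 genes were chosen after their values were seen.

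Some genes that supply or carry reducing power passed 2-fold only before centring. Txn1, which encodes thioredoxin itself, had 3920 in 3-NP and 1653 in saline at day 1, a relative log2 ratio of 0.81, and 1.25 as deposited. The pentose phosphate enzyme gene Taldo1 had 1042 in 3-NP and 405 in saline, at 0.93 and 1.36 as deposited. Similarly, Slc3a2, which encodes the heavy chain that partners the cystine importer, had 1530 in 3-NP and 700.4 in saline, at 0.69 and 1.13 as deposited. All 3, likewise chosen after their values were seen, passed 2-fold as deposited and not relative to the median gene.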
